A study of Mus musculus with 14 samples.

Results

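The 8 genes described here code for proteins of the striated muscle sarcomere and of its attachment sites that are known for changing when muscle is stretched or loaded: the ankyrin-repeat proteins Ankrd1, Ankrd2 and Ankrd23, the Xin actin-binding repeat proteins Xirp1 and Xirp2, the LIM-domain protein Csrp3, the small muscle protein Smpx and the phosphoglucomutase-like protein Pgm5. They were chosen by gene symbol, and each of the 8 symbols matched 1 of the 49671 genes of the expression table. All 8 passed the filter on low counts that left 15973 genes for testing. Ankrd1, Ankrd23, Xirp1 and Xirp2 were over the filter's level in all 14 libraries, whereas Ankrd2, Csrp3, Smpx and Pgm5 were over it in 10 libraries and below it in undifferentiated cells and in 1 medium at day 2.

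The muscle ankyrin-repeat proteins bind the elastic filament protein titin in the I-band of the sarcomere and are also found in the nucleus. Ankrd1 (CARP) is abundant in heart, Ankrd2 (Arpp) in slow skeletal muscle, and Ankrd23 (DARP) in heart and skeletal muscle. The Xin proteins bind actin filaments and sit at myotendinous junctions, intercalated discs and sites of sarcomere assembly and repair. Csrp3 (muscle LIM protein) is a Z-disc and nuclear protein linked to mechanical sensing, Smpx (Csl, chisel) is a small cytoskeletal protein of striated muscle, and Pgm5 (aciculin) lies at adherens junctions and costameres, where it binds Xin and filamin C.

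C2C12 is an immortalised mouse myoblast line that fuses into myotubes when serum is withdrawn. Growing cells in 20% fetal calf serum (FCS) were taken at day 0, and cells were moved to 1 of 3 differentiation media and taken at day 2 and day 7. DM3 held 2% horse serum and a pro-adipogenic cocktail of insulin (1 µg/ml), isobutylmethylxanthine (IBMX, a phosphodiesterase inhibitor, 0.5 mM), the glucocorticoid dexamethasone (0.5 µM) and the PPARγ agonist rosiglitazone (2 µM). DM2 held the same cocktail with 10% FCS, and DM1 was the standard myogenic medium, with 2% horse serum and no cocktail. DM3 and DM1 thus differ by the cocktail as a whole, and DM3 and DM2 by the kind and amount of serum. All 7 groups (DM3, DM2 and DM1 at day 7 and at day 2, and day 0) are cultures of a single cell line under no applied stretch that the labels mention, and each has 2 poly(A) RNA libraries that the labels do not tie to separate cultures, so p-values measure only the spread between these libraries.

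The libraries held 21907617 to 29784885 assigned reads, and 3 reads, the limit that a count of 0 allows, corresponded to 0.102 to 0.132 CPM (reads per 1000000 reads of the scaled library). In 3 groups 1 library stood apart by a low share of reads on processed pseudogenes: 0.837% in DM3 day 2 replicate 2 against 2.84% in replicate 1, 1.6% in DM1 day 2 replicate 1 against 2.58% in replicate 2, and 1.68% in day 0 replicate 1 against 3.02% in replicate 2. Calls of the 8 genes that were lost or gained when these 3 libraries were left out are given with the gene or with the count. Leaving out these low-pseudogene libraries was an alternative chosen after seeing the data. The summed level of 10 skeletal muscle markers was 13.1 to 14 CPM at day 0, 825 to 966 CPM in DM3, 82.3 to 96.4 CPM in DM2 and 477 to 518 CPM in DM1 at day 2, and 23388 to 24989 CPM in DM3, 641 to 644 CPM in DM2 and 956 to 1282 CPM in DM1 at day 7. Markers of the labelled cell type were thus present, and they move with the groups compared below; their part in the results was not tested. The 7 adipocyte markers summed to at most 9.41 CPM in any library. The 8 cardiac markers summed to at most 17.7 CPM, in DM3 at day 7, with Nppa and Myl7 at 0 in every library. Group means of Nkx2-5 were 3.88 to 6.51 CPM, and those of Nppb, Tbx5 and Hcn4 at most 1.49 CPM. Myh6 and Tnni3 had means of 0.0349 and 0.0694 CPM at day 0 and 5.46 and 5.76 CPM in DM3 at day 7.

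**Figure D1:**
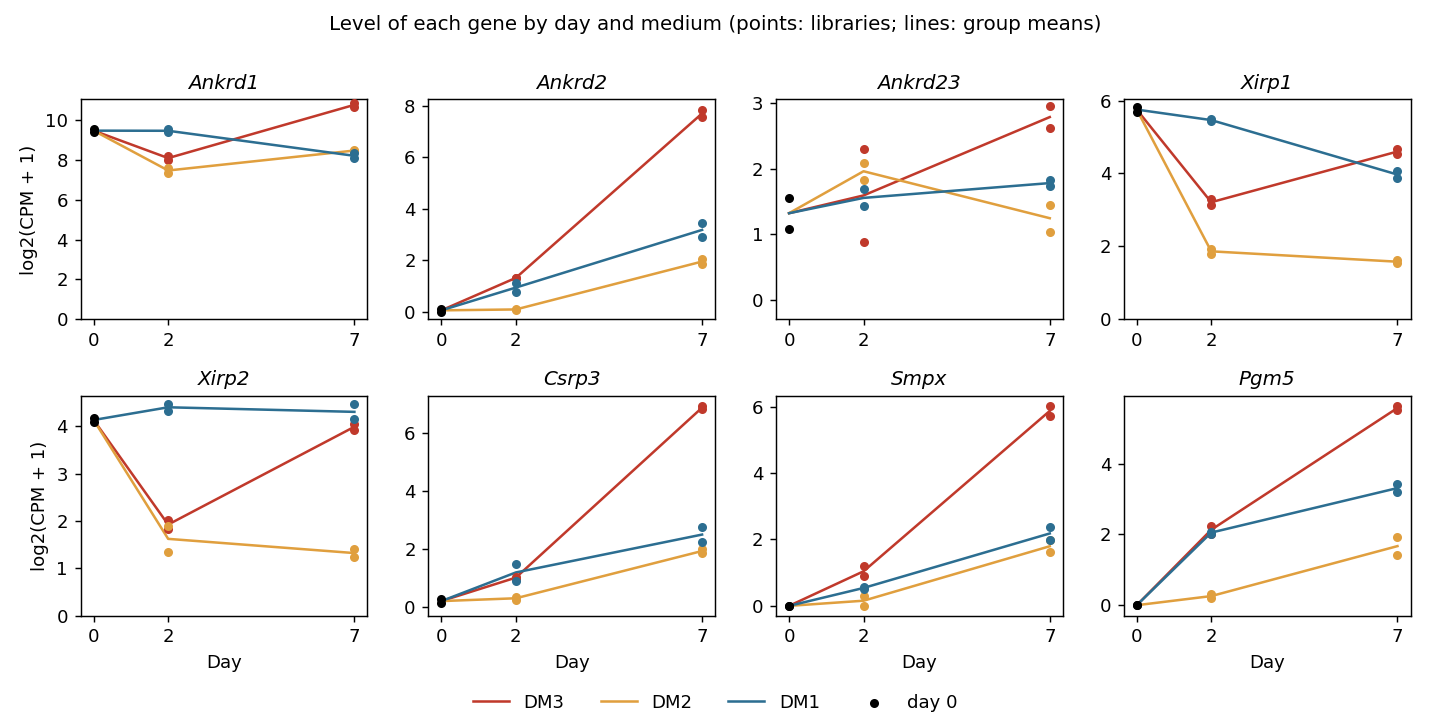
Level of each of the 8 genes, as log2(CPM + 1), at days 0, 2 and 7 in DM3, DM2 and DM1, with points for the 14 libraries and lines through group means. Ankrd2, Csrp3, Smpx and Pgm5 are near 0 at day 0 and highest in DM3 at day 7, while Xirp1 and Xirp2 are lower than at day 0 in DM3 and DM2 at day 2 and differ between these 2 media at day 7.

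The genes other than Ankrd23 fell into 2 sets by their level in growing cells. Ankrd2, Csrp3, Smpx and Pgm5 were at or near 0 in growing cells, and the lower DM3 library of day 7 was 18.8, 19.0, 12.2 and 4.57 times the highest library of any other group. Xirp1, Xirp2 and Ankrd1 were already expressed in growing cells, stayed near that level in DM1 at day 2, and were lower in both cocktail media at day 2. All 3 were higher in DM3 at day 7 than in DM3 at day 2, and in DM2 Ankrd1 was the 1 of the 3 called higher at day 7. For Ankrd1, Xirp1 and Xirp2 the lower DM3 library of day 7 was 2.18, 0.401 and 0.670 times the highest library of any other group. In these bulk samples, fewer cells of a type and less RNA per cell cannot be told apart.

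Ankrd1 (19:36111961-36120099, minus strand of GRCm38, as all coordinates here) had the highest level per kb of exon of the 3 ankyrin-repeat genes. It had 741 and 666 CPM at day 0. In DM3 it had 252 and 289.7 CPM at day 2 and 1841 and 1618 CPM at day 7. DM2 cells had 189 and 162 CPM at day 2 and 350.1 and 353 CPM at day 7, and DM1 cells 737 and 664 CPM at day 2 and 320.0 and 267 CPM at day 7. The DM3 libraries of day 7 lie above every other library, and day 0 and DM1 day 2 overlap as the next 2 groups in order. The log2 fold change against day 0 was -1.38 ± 0.12 (SE) in DM3 and -2.00 ± 0.12 in DM2 at day 2 (adjusted p = 1.72e-06 and 1.68e-07, quasi-likelihood test of edgeR, adjusted over all genes tested by the Benjamini-Hochberg method and called below 0.05, as for every call below). It was -0.01 ± 0.12 in DM1 (edgeR adjusted p = 0.982). At day 7 it was 1.30 ± 0.12 in DM3, the reverse direction of day 2, against -1.0 in DM2 and -1.26 in DM1 (edgeR adjusted p = 1.57e-06, 1.83e-05 and 3.13e-06).

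The 250 bases before the RefSeq start of Ankrd1 hold 2 matches to MCAT, the element bound by the TEAD transcription factors that are partners of YAP, searched as GGAATG on both strands. They are shown because MCAT elements are well known in muscle promoters and Ankrd1 is a widely used YAP/TEAD target. The stretches are from the RefSeq promoter table of GRCm38.p6, on the gene's minus strand, with the match in capitals. That table's start lies inside the gene coordinates given above, so its window, from 36119845 to 36120094, lies within the annotated gene and not before it. Promoter positions of the 7 genes with a window are counted from RefSeq starts.
Ankrd1 upstream site at chr19:36120037-36120066: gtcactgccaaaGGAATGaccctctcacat
Ankrd1 downstream site at chr19:36119950-36119979: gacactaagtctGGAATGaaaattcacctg
The matches lie 210 to 205 and 123 to 118 bases before that start, and the last 6 bases of the downstream stretch read CAGGTG, an E-box, on the other strand. Of 32851 windows of the same length in that table, 12.6% hold GGAATG on either strand and 17.2% hold CAGGTG. The second window of Ankrd23, from 36535740 to 36535989 and within its annotated gene, also holds both motifs. GGAATG lies there on the other strand at 120 to 115 bases before the start, and CAGGTG at 202 to 197. A match in these letters is a description of the sequence only.

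Ankrd2 (19:42036000-42045110, plus strand) was nearly undetected in growing cells. It had 0 and 0.0681 CPM at day 0, which is 0 and 2 reads. In DM3 it had 1.5 and 1.47 CPM at day 2 and 232 and 188 CPM at day 7. In DM2 it had 0.0801 and 0.0382 CPM at day 2, 3 reads in all, and 3.12 and 2.61 CPM at day 7, and in DM1 1.13 and 0.713 CPM at day 2 and 9.98 and 6.47 CPM at day 7. DM3 at day 7 lies far above every other group, and DM2 day 2 and day 0 overlap at the bottom. At day 7 the log2 fold change of DM3 was 6.19 ± 0.28 against DM2 and 4.67 ± 0.25 against DM1 (edgeR adjusted p = 4.15e-08 and 3.08e-07). Against day 0 the CPM ratio rests on 2 reads and has wide 95% counting intervals, at 83.2 (22.6 to 694) for DM2 and 243 (66.7 to 2009) for DM1 at day 7. At day 2 the ratio was 43.0 (11.5 to 361) for DM3 and 26.4 (6.91 to 225) for DM1 (edgeR adjusted p = 7.12e-05 and 0.000923), and 1.70 (0.195 to 20.4) for DM2 (edgeR adjusted p = 0.693). The fitted log2 fold change of DM3 at day 7 against day 0, 12.38, was 11.49 without day 0 replicate 1. Without day 0 replicate 2 it was 15.39, which is no bound because the day 0 library left had no read. The DM1 call at day 2 was lost without the 3 low-pseudogene libraries, where the log2 fold change was 3.30.

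The 223 bases before Ankrd2 are shown because they hold a pair of E-boxes of the form CAGGTG, the kind of site bound by MyoD and myogenin, in capitals, at 140 to 135 and 127 to 122 bases before the start used in the RefSeq table.
Ankrd2 at chr19:42035777-42035999, plus strand of GRCm38.p6: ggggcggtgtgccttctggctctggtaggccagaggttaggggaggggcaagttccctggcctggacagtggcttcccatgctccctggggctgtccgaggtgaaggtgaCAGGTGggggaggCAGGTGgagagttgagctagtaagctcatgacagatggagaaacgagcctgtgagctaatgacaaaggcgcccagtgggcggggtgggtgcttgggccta
Besides Ankrd1 and Ankrd23, CAGGTG also occurs in the second of the 2 windows of Csrp3, at 189 to 184 and 165 to 160 bases before the start. That window, from 48843672 to 48843921, lies within the annotated gene. The first window of Csrp3, which lies before the annotated gene, held none of the 6 motifs searched. CAGCTG, another E-box (13% of all windows), occurs in Pgm5 at 177 to 172. The window of Smpx held none of the 6 motifs searched, which says only that these letters are not in this window.

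Csrp3 (7:48830398-48848033, minus strand) followed Ankrd2 closely. It had 0.209 and 0.102 CPM at day 0, 0.969 and 1.07 CPM in DM3 at day 2 and 120.2 and 111 CPM in DM3 at day 7. DM2 cells had 0.280 and 0.191 CPM at day 2 and 2.67 and 2.96 CPM at day 7, and DM1 cells 1.81 and 0.863 CPM at day 2 and 5.81 and 3.67 CPM at day 7. Every group of day 7 lies above every group of day 2, and DM3 at day 7 lies far above the rest. The log2 fold change of DM3 at day 7 was 5.36 ± 0.30 against DM2 and 4.6 ± 0.29 against DM1 (edgeR adjusted p = 1.88e-07 and 7.01e-07). At day 2 DM3 was higher than DM2 (2.10 ± 0.48, edgeR adjusted p = 0.0155), a call that was lost without DM2 day 2 replicate 1, without DM2 day 2 replicate 2 and without DM3 day 2 replicate 2 (edgeR adjusted p = 0.0833, 0.0831 and 0.106). Leaving out the 3 low-pseudogene libraries gave 0.0503. Against DM1 at day 2 the value was -0.36 ± 0.36 (edgeR adjusted p = 0.476), and 0.24 without DM1 day 2 replicate 1.

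Smpx (X:157698910-157752591, plus strand) had no read in either library of day 0. In DM3 it had 1.28 and 0.859 CPM at day 2 and 63.7 and 51.8 CPM at day 7. The DM2 libraries had 0.240 and 0 CPM at day 2 and 2.94 and 2.06 CPM at day 7, and the DM1 libraries 0.420 and 0.488 CPM at day 2 and 4.24 and 2.92 CPM at day 7. DM1 and DM2 overlap at day 7, and DM3 lies well above both. Against the limit of 3 reads in a day 0 library, the level was at least 559-fold higher in DM3, 24.2-fold higher in DM2 and 34.6-fold higher in DM1 at day 7, and at least 10.3-fold higher in DM3 and 4.39-fold higher in DM1 at day 2; the edgeR test called all 5. The DM1 call of day 2 (edgeR adjusted p = 0.0131) was lost without day 0 replicate 1, without day 0 replicate 2 and without DM1 day 2 replicate 2 (edgeR adjusted p = 0.057, 0.0501 and 0.0618). Leaving out the 3 low-pseudogene libraries gave 0.0796. At day 2 DM3 exceeded DM2 by 8.92-fold in CPM (95% counting interval 3.84 to 25.4, edgeR adjusted p = 0.0263), a ratio that rests on the reads of 1 DM2 library. The fitted log2 fold change was 3.12, and 2.12 without DM2 day 2 replicate 2; without replicate 1 it was 7.78, which is no bound because the DM2 library left had no read. The call was lost where only these groups entered the fit, without a filter on low counts, without DM1 day 2 replicate 1 and without DM1 day 2 replicate 2 (edgeR adjusted p = 0.248, 0.0703, 0.052 and 0.0525).

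Pgm5 (19:24683016-24861855, minus strand) also had no read at day 0. In DM3 it had 3.74 and 3.04 CPM at day 2 and 48.4 and 44.8 CPM at day 7, and DM1 libraries had 3.06 and 3.23 CPM at day 2 and 9.80 and 8.10 CPM at day 7. In DM2 it had 0.240 and 0.153 CPM at day 2 and 2.79 and 1.67 CPM at day 7. DM3 and DM1 overlap at day 2, with a log2 difference of 0.11 ± 0.22 (edgeR adjusted p = 0.754), while DM2 lies well below both, with DM3 17.2-fold above it in CPM (95% counting interval 9.11 to 36.5, edgeR adjusted p = 1.06e-05). At day 7 the log2 fold change of DM3 was 4.38 ± 0.23 against DM2 and 2.38 ± 0.21 against DM1 (edgeR adjusted p = 4.81e-08 and 4.21e-06). Against the limit of 3 reads in a day 0 library, the level in DM3 was at least 32.8-fold higher at day 2 and at least 450.3-fold higher at day 7.

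Xirp1 (9:120013755-120023598, minus strand) was lower in DM3 at day 2 than at day 0, a comparison in which these 4 genes were called higher. It had 55.3 and 50.6 CPM at day 0, its highest level. In DM3 it had 7.71 and 8.84 CPM at day 2 and 22.2 and 24.4 CPM at day 7. DM2 cells had 2.80 and 2.48 CPM at day 2 and 2.07 and 1.91 CPM at day 7, and DM1 cells 43.7 and 42.5 CPM at day 2 and 15.6 and 13.7 CPM at day 7. No 2 groups overlap. The log2 fold change at day 2 was -2.67 ± 0.11 in DM3, -4.32 ± 0.13 in DM2 and -0.30 ± 0.10 in DM1 against day 0, with edgeR adjusted p = 5.46e-09, 7.9e-10 and 0.0512, the last of which was 0.0205 where only the groups compared entered the fit and 0.0359 to 0.0495 without any 1 of the 4 DM3 and DM2 libraries of day 2. At day 7 DM3 was 3.55 ± 0.13 above DM2 on the log2 scale and 0.66 ± 0.11 above DM1 (edgeR adjusted p = 7.49e-10 and 0.000283).

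Xirp2 (2:67446002-67526614, plus strand) had 16 and 17.1 CPM at day 0. In DM3 it had 3.04 and 2.58 CPM at day 2 and 14.2 and 15.6 CPM at day 7, and in DM1 cells 19.1 and 21.3 CPM at day 2 and 21.0 and 16.7 CPM at day 7. In DM2 it had 1.56 and 2.71 CPM at day 2 and 1.66 and 1.36 CPM at day 7. Both groups of DM1 and day 0 lie together at the top, DM3 at day 7 lies just under them, and the other 3 groups overlap at the bottom. The log2 fold change at day 2 was -2.85 ± 0.22 for DM3 against DM1 and -3.23 ± 0.22 for DM2 against DM1 (edgeR adjusted p = 1.37e-06 and 5.01e-07). At day 7 DM3 was 3.30 ± 0.23 above DM2 (edgeR adjusted p = 1.55e-07), and its difference from DM1 was -0.34 ± 0.19 (edgeR adjusted p = 0.175), which was called at -0.58 with libraries scaled to their totals alone (edgeR adjusted p = 0.0333) and at -0.36 with only these groups in the fit (edgeR adjusted p = 0.0338).

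The 250 bases before Xirp2 are shown because they hold a match to the site of the MEF2 transcription factors, in capitals, 74 to 65 bases before the start; 2.92% of all windows hold one.
Xirp2 at chr2:67445752-67446001, plus strand of GRCm38.p6: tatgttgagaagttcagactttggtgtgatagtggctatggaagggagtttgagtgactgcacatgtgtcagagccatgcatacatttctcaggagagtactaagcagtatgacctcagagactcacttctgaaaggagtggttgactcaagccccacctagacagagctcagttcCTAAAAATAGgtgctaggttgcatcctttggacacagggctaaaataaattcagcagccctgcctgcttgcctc
RefSeq windows were matched for 7 of the 8 genes, and Xirp1 is named only. The window of Xirp2 was the 1 member window with a MEF2 match, and no member window held a CArG box, the site of serum response factor (1.47% of all windows), or the cAMP response element TGACGTCA (1.55%).

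Ankrd23 (1:36530188-36536883, minus strand) was low throughout, and its counts are uncertain. It shares 78.2% of its exonic length with the read-through gene Gm42417 on the same strand, and the estimated counts moved between the 2 genes from library to library: Gm42417 took 57.8 reads and Ankrd23 19.1 in DM3 day 2 replicate 1, against 0 and 110.0 in replicate 2. Ankrd23 alone had 1.12 and 1.94 CPM at day 0, 0.837 and 3.94 CPM in DM3 at day 2 and 5.16 and 6.73 CPM in DM3 at day 7. DM2 libraries had 2.56 and 3.24 CPM at day 2 and 1.73 and 1.05 CPM at day 7, and DM1 libraries 1.68 and 2.21 CPM at day 2 and 2.53 and 2.34 CPM at day 7. The sum of both genes, an alternative chosen after seeing the data, was closer between replicates, at 3.67 ± 0.389 CPM (SD, n = 2) in DM3 at day 2 and 7.30 ± 0.0354 CPM in DM3 at day 7. DM3 at day 7 was the highest group on both scales. The log2 fold change of DM3 at day 7 was 2.09 ± 0.58 against DM2 (edgeR adjusted p = 0.0107; 2.10 and 1.52e-06 for the sum) and 1.29 ± 0.55 against DM1 (edgeR adjusted p = 0.0817; 1.54 and 2.6e-05 for the sum). The call of DM3 against DM2 was lost without DM2 day 7 replicate 2 and without DM3 day 7 replicate 2 (edgeR adjusted p = 0.0897 and 0.0521). DM3 at day 7 was also higher than day 0 (1.96 ± 0.57, edgeR adjusted p = 0.0126; 2.02 and 1.35e-06 for the sum), a call that was lost for Ankrd23 alone without day 0 replicate 1 and without DM3 day 7 replicate 2 (edgeR adjusted p = 0.0953 and 0.0595). The sum was called in 10 comparisons in which Ankrd23 alone was not, and Ankrd23 alone was called in 8 more comparisons without the 3 low-pseudogene libraries than with them. At day 2 these alternatives gave opposite directions. DM3 against day 0 was 1.03 for the sum (edgeR adjusted p = 0.000537) and -1.21 for Ankrd23 without the 3 libraries (edgeR adjusted p = 0.0499), and DM3 against DM1 was 0.64 and -1.40 (edgeR adjusted p = 0.0159 and 0.0423). The direction of Ankrd23 in DM3 at day 2 thus differed between these alternatives. At day 7 the call of DM3 against DM1 was gained for Ankrd23 alone without the 3 libraries (1.29, edgeR adjusted p = 0.00105).

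Counted over the 8 genes, DM3 at day 7 had 6 higher and 1 lower than at day 0, against 28.9% of all genes tested called higher and 30.1% called lower. Xirp1 was the lower one, and Xirp2 was not called. DM2 at day 7 had 4 higher and 3 lower (24.5% and 30.9% of all genes), and DM1 4 higher and 2 lower (27.7% and 25.8%). At day 2 DM3 had 4 higher and 3 lower (25.5% and 25.4%), DM2 1 higher and 3 lower (23.5% and 26.2%), and DM1 4 higher and none lower (15.2% and 14.6%). The DM1 count of 4 was 2 without the 3 low-pseudogene libraries, where Ankrd2 and Smpx were lost. In DM1 at day 2, Xirp1 was the 1 lower gene at an unadjusted p under 0.05 by edgeR, and DESeq2 called none. The 1 gene called higher in DM2 at day 2 was Pgm5, on 10 reads in all, and the 3 lower were Ankrd1, Xirp1 and Xirp2. Smpx, with 6 reads in DM2 at day 2, was also called higher there by DESeq2 (4.22, DESeq2 adjusted p = 0.0188). It was called higher too without DM2 day 2 replicate 2, at 5.66. With Gm42417 counts added, Ankrd23 was also called higher than at day 0 in DM3 at day 2, DM2 at day 2 and DM1 at day 7. The 3 values were 1.03, 0.90 and 0.49 (edgeR adjusted p = 0.000537, 0.00157 and 0.044). The median log2 fold change of the 8 against day 0 was 5.72 in DM3, 2.00 in DM2 and 2.79 in DM1 at day 7, against 0.03, -0.03 and 0.06 over all genes tested. These comparisons share the day 0 libraries, so their values are not independent of each other.

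The contrast of media was tested directly. At day 7 all 8 genes were higher in DM3 than in DM2 (27.5% of all genes called higher, 25.2% lower), and 6 were higher in DM3 than in DM1 with none lower (22.7% and 25.1%). At day 2 DM3 had 6 of the 8 higher than DM2 and none lower (9.98% and 6.31%), a count that was 3 where only these groups entered the fit. Without the 3 low-pseudogene libraries it was 4 higher and 1 lower: Ankrd1 (0.52, edgeR adjusted p = 0.0716) and Csrp3 were lost, and Ankrd23 was called lower (-1.79, edgeR adjusted p = 0.0182). Xirp2 was called higher without DM2 day 2 replicate 2 (0.84, edgeR adjusted p = 0.0203). Also at day 2, DM3 had 3 of the 8 lower than DM1, namely Ankrd1, Xirp1 and Xirp2, and none higher (19.4% and 17.6%). DM2 had 6 lower than DM1 at day 2 and none higher (21.9% and 17.5%), and DESeq2 also called Smpx lower (-1.95, DESeq2 adjusted p = 0.0211). At day 7 DM2 had 5 lower than DM1 and none higher (31.4% and 26.5%). In each of these counts of 0, edgeR gave 0 of the 8 at an unadjusted p under 0.05, while DESeq2 called 1 higher in DM3 than in DM1 at day 2 (Smpx, 1.20) and 1 higher in DM2 than in DM1 at day 7 (Ankrd1, 0.31), and none in the others. Smpx was called higher in DM3 than in DM1 at day 2 also without either DM2 library of day 2 (edgeR adjusted p = 0.0158 and 0.0164). Ankrd1 was called higher in DM2 than in DM1 at day 7 with RLE size factors and without DM1 day 7 replicate 1 (edgeR adjusted p = 0.0436 and 0.0333). With Gm42417 counts added, Ankrd23 was called higher at day 2 in DM3 than in DM1 (0.64, edgeR adjusted p = 0.0159) and in DM2 than in DM1 (0.51, edgeR adjusted p = 0.0436). At day 7 it was called lower in DM2 than in DM1 (-0.56, edgeR adjusted p = 0.0226; -0.80 and 0.026 for Ankrd23 without the 3 libraries). The day 7 fall of Csrp3 in DM2 against DM1 (-0.76 ± 0.28, edgeR adjusted p = 0.0414) was lost with another scaling (edgeR adjusted p = 0.0534 with RLE size factors) and without any 1 of 7 libraries (edgeR adjusted p = 0.0636 to 0.339), and it was -0.38 without DM1 day 7 replicate 1.

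**Figure D2:**
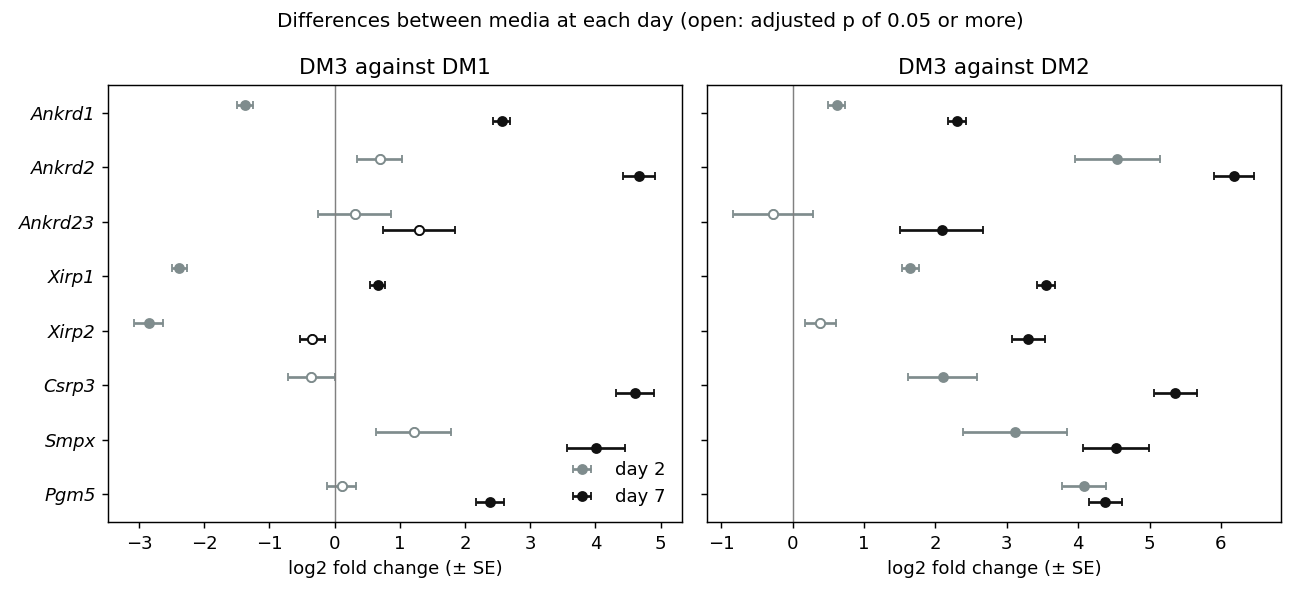
Log2 fold change, with its SE, of DM3 against DM1 (left) and of DM3 against DM2 (right) for each gene at day 2 (grey) and day 7 (black), with open circles where the adjusted p is 0.05 or more. Ankrd1, Xirp1 and Xirp2 lie left of 0 at day 2 against DM1 (-1.37, -2.38 and -2.85), and every gene lies right of 0 at day 7 against DM2 (2.09 to 6.19).

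Whether the DM3 difference itself changed between day 2 and day 7 was tested with an interaction term. The change is signed, so a positive value means that DM3 stood higher relative to the other medium at day 7 than at day 2, whatever the size of the difference on each day. Against DM1, the change was positive for 7 of the 8 genes and negative for none (16.3% of all genes called higher and 18.7% lower). For Xirp1 the difference from DM1 was 0.66 at day 7 and -2.38 at day 2, and for Xirp2 -0.34 and -2.85, both nearer to 0 at day 7. Ankrd23 alone was not called, at 0.98 ± 0.79 (edgeR adjusted p = 0.378), but was called with Gm42417 counts added (0.89, edgeR adjusted p = 0.0181). It was also called without DM3 day 2 replicate 2 (2.51, edgeR adjusted p = 0.00429) and without the 3 low-pseudogene libraries (2.69, edgeR adjusted p = 0.00259). The call of Smpx was lost without the 3 libraries (edgeR adjusted p = 0.0533). The signed log2 change was highest for Csrp3 (4.96 ± 0.45, edgeR adjusted p = 2.77e-05), followed by Ankrd2 (3.97 ± 0.44) and Ankrd1 (3.93 ± 0.18). The Csrp3 value was 4.36 without DM1 day 2 replicate 1. Against DM2, the change was positive for 5 of the 8 and negative for none (20% and 19.8%), among them Xirp2 (2.91 ± 0.32) and Xirp1 (1.90 ± 0.17), whereas Pgm5 changed by 0.30 ± 0.47 (edgeR adjusted p = 0.696). This count was 3 without DM2 day 2 replicate 1. Ankrd23 was 1 of the 5 (2.36 ± 0.8, edgeR adjusted p = 0.038). Its call was lost without a filter on low counts and with only the groups compared (edgeR adjusted p = 0.111 and 0.107). It was kept with Gm42417 counts added (1.96, edgeR adjusted p = 9.24e-05). Its dependence on single libraries is given further below. For both interactions, edgeR gave none of the 8 a negative change at an unadjusted p under 0.05, and DESeq2 called none.

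Within media, 7 of the 8 genes were higher in DM3 at day 7 than at day 2 and none lower (22.6% of all genes called higher and 25.3% lower), with Ankrd23 at 1.30 ± 0.55 (edgeR adjusted p = 0.0775). Ankrd23 was called higher with Gm42417 counts added (0.99, edgeR adjusted p = 0.000685). It was also called without DM3 day 2 replicate 2 (2.83, edgeR adjusted p = 0.000356), without the 3 low-pseudogene libraries (2.82, edgeR adjusted p = 0.00012) and with a replicate block (1.41, edgeR adjusted p = 0.0472). In DM2 5 were higher and none lower (25.4% and 29.4%), namely Ankrd1, Ankrd2, Csrp3, Smpx and Pgm5, and Xirp1 and Xirp2 stood at -0.41 ± 0.13 and -0.50 ± 0.23 (edgeR adjusted p = 0.0536 and 0.0894), which were called at -0.67 and -0.76 with libraries scaled to their totals alone, and Xirp2 also at -0.84 without DM2 day 2 replicate 1 (edgeR adjusted p = 0.00388). Ankrd23 stood at -1.06 ± 0.57 (edgeR adjusted p = 0.145) and was called lower with Gm42417 counts added (-0.97, edgeR adjusted p = 0.000811). It was also called with only the groups compared (edgeR adjusted p = 0.0109), without either DM3 library of day 2 (0.0126 and 0.0139) and without the 3 libraries (0.006). In DM1 4 were higher and 2, Ankrd1 and Xirp1, were lower (16.8% and 17.5%). The log2 fold change of Xirp1 was 1.49 ± 0.11 in DM3 and -1.55 ± 0.11 in DM1, opposite directions over the same days. At an unadjusted p under 0.05 edgeR gave Xirp1 as the 1 lower gene in DM2 and none in DM3, and DESeq2 called none lower in either.

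Levels of different genes were compared per kb of exon. Ankrd1 had 599 ± 54.4 CPM per kb in DM3 at day 7 and 244 ± 18.3 at day 0 (SD, n = 2 each), and it made up 75.6% and 77.0% of the summed level of the 3 ankyrin-repeat genes in DM3 at day 7, against 99.8% in day 0 replicate 1. Ankrd2 made up 24.1% and 22.7% in DM3 and 7.27% and 5.73% in DM1 at day 7. The level of Ankrd1 per kb over that of Ankrd2 was 3.13 and 3.40 in DM3, 44.2 and 53.4 in DM2 and 12.6 and 16.3 in DM1 at day 7. In DM3 libraries of day 2 it was 66.3 and 77.8. Of all groups, DM3 at day 7 had the lowest ratio. Xirp1 exceeded Xirp2 per kb in every library, by 1.53 to 7.08 times.

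**Figure D3:**
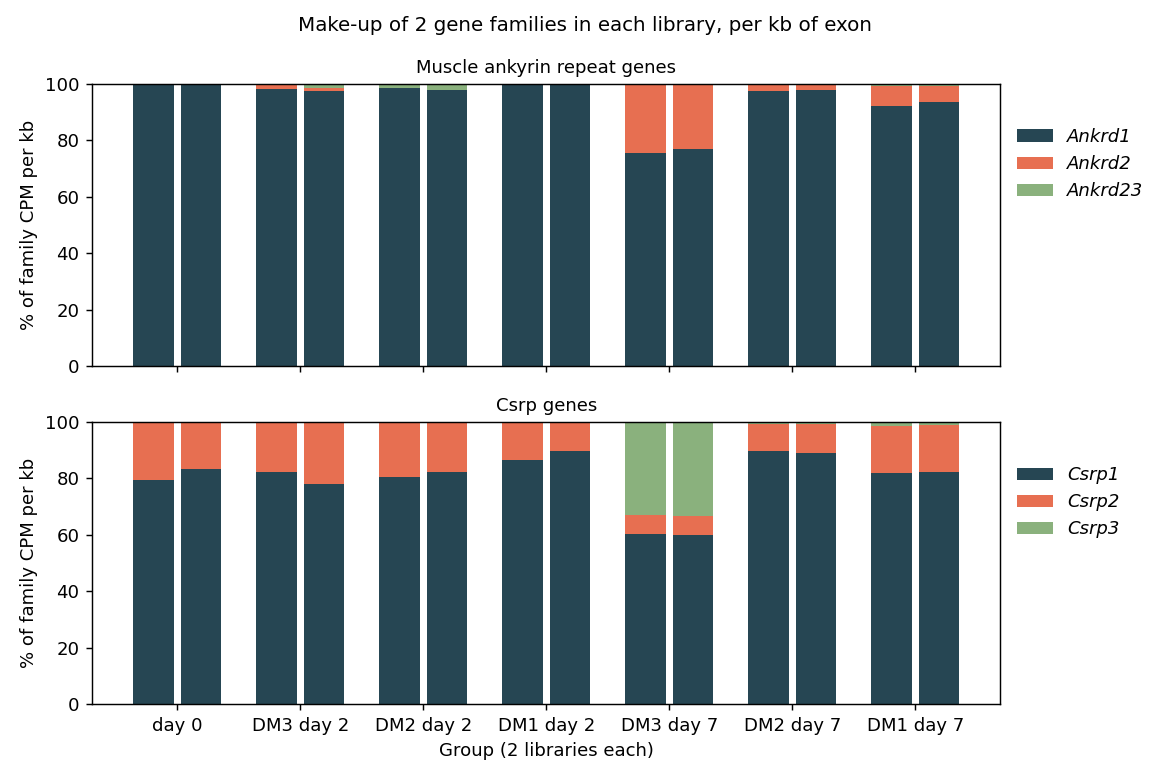
Share of each gene in the summed CPM per kb of exon of its family, in percent, for the 2 libraries of each group, for the muscle ankyrin-repeat genes (top) and the Csrp genes (bottom). Ankrd2 reaches 24.1% and 22.7%, and Csrp3 32.8% and 33.2%, in DM3 at day 7.

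Csrp3 has 2 relatives with the same pair of LIM domains, Csrp1 and Csrp2, known from smooth muscle and other cells. Both were lower in DM3 at day 7, at 154 ± 11.6 and 19.7 ± 1.05 CPM (SD, n = 2), than at day 0, at 256 ± 22.9 and 64.5 ± 6.67 CPM, a log2 fold change of -0.73 ± 0.14 and -1.71 ± 0.13 (edgeR adjusted p = 0.00048 and 2.83e-07). Per kb, Csrp3 made up 32.8% and 33.2% of the 3 genes in DM3 at day 7, and 1.54% and 0.951% in DM1 at day 7. The striated muscle member was highest in the group in which the other 2 had their lowest means.

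Across the 14 libraries, Ankrd2, Csrp3 and Smpx correlated with each other at a Pearson r of 0.99 for each pair on log2(CPM + 1), and with Pgm5 at 0.93 to 0.95. Xirp1 and Xirp2 correlated at 0.91, and with the other 4 at 0.07 to 0.36. Ankrd1 stood between, at 0.57 to 0.69 with all but Ankrd23. These are descriptions over libraries that fall into 7 groups of 2 and share their group structure. For Ankrd2, Csrp3 and Smpx the lower DM3 library of day 7 was 18.8, 19.0 and 12.2 times the highest library of any other group. How far r rests on this 1 group was not tested. Among all genes tested, those most like Ankrd2 were Itgb1bp2 (melusin, an integrin-binding muscle protein; r = 0.995), Filip1 and Pgam2, and the same 3 were most like Smpx. Those most like Pgm5 were Casq2, Lmod3 and Myom1 (r = 0.993, 0.992 and 0.984), and those most like Csrp3 were BC051019, Ablim3 and Tpm2. Ankrd1 was most like Cdh2 (N-cadherin; 0.978), Mmachc and Tmsb4x. Xirp1 was most like Tnfaip3 (0.974), Ptpn21 and Ptpn12, and Xirp2 like Lmo7 (0.975), Fam134b and Gm14137. For Ankrd23 the likest gene was Gm10461, at 0.886.

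**Figure D4:**
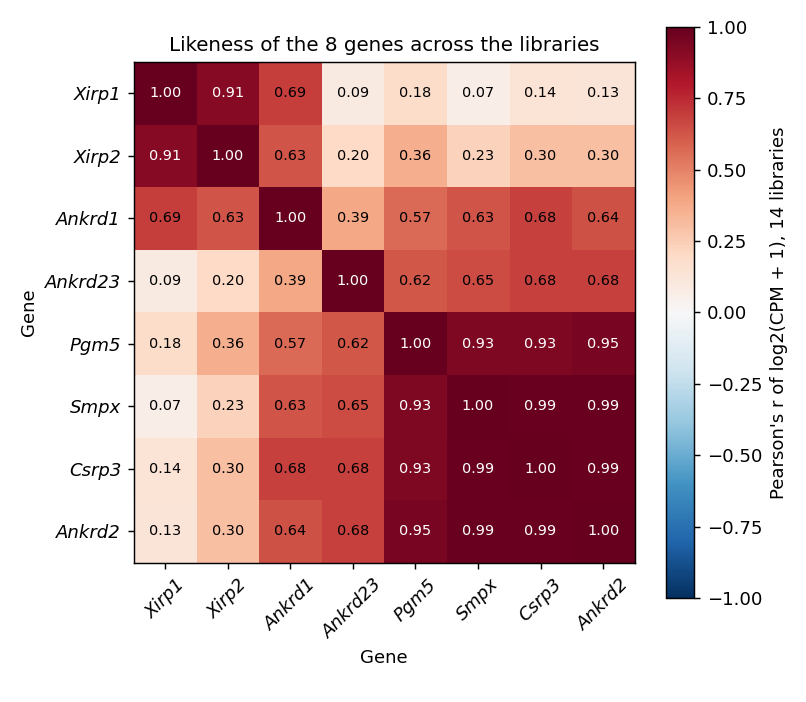
Pearson's r of log2(CPM + 1) over the 14 libraries for each pair of the 8 genes. Xirp1 and Xirp2 form a pair at 0.91, and Pgm5, Smpx, Csrp3 and Ankrd2 form a block at 0.93 to 0.99.

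The partners of these proteins were taken from lists of known titin and Z-disc, adhesion, LIM-domain, YAP/TEAD, calcineurin and myogenic genes. Their counts are to be read against the shares of all genes tested, which were 28.9% called higher and 30.1% called lower in DM3 at day 7 and 23.5% and 26.2% in DM2 at day 2, with medians of 0.03 and 0.01. Of 20 tested titin and Z-disc partners, 18 were higher and 2 lower in DM3 at day 7 than at day 0, with a median log2 fold change of 2.22, and 6 were higher and 5 lower in DM2 at day 2 (median 0.07). Trim63 (MuRF1, a ubiquitin ligase of the titin M-band) had 23.0 ± 0.383 CPM in DM3 at day 7 and Mypn (myopalladin, an Ankrd1 partner) 4.91 ± 0.194, and both had no read at day 0. The 2 that fell in DM3 were Nebl (nebulette, at -3.64 ± 0.39) and Palld (palladin, at -0.55 ± 0.068) (edgeR adjusted p = 5.61e-06 and 1.91e-05). Synpo2l, a Z-disc actin-binding protein, was lower in DM2 at day 2, at -0.97 ± 0.12, and higher in DM3 at day 7, at 1.78 ± 0.12 (edgeR adjusted p = 2.73e-05 and 5.77e-08).

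Of 22 tested adhesion and membrane partners, 11 were higher and 3 lower in DM3 at day 7 (median 0.24; 28.9% and 30.1% of all genes), and 6 were higher and 10 lower in DM2 at day 2 (median -0.18; 23.5% and 26.2%). Itgb1bp2 had 227 ± 23.4 CPM in DM3 at day 7 and 0.275 ± 0.142 at day 0. Dmd (dystrophin) had 1.71 ± 0.448 CPM in DM3 at day 7 and no read at day 0. Cdh2 had a log2 fold change of -1.77 ± 0.085 in DM2 at day 2 and 0.84 ± 0.082 in DM3 at day 7 (edgeR adjusted p = 2.91e-08 and 2.26e-06), the same 2 directions as Ankrd1. Ilk (integrin-linked kinase) and Parva (parvin) were lower in DM3 at day 7 (-0.53 ± 0.079 and -0.48 ± 0.078, edgeR adjusted p = 8.84e-05 and 0.00018), and the LIM adaptor Lims2, which binds Ilk, was higher in DM2 at day 2 (3.03 ± 0.20, edgeR adjusted p = 6.52e-07).

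Among 21 YAP/TEAD-linked genes, 10 were higher and 6 lower in DM3 at day 7 (median 0.15; 28.9% and 30.1% of all genes), and 6 were higher and 7 lower in DM2 at day 2 (median -0.04; 23.5% and 26.2%). The lower count in DM3 and the higher count in DM2 are near the shares over all genes. The TEAD-family genes Tead4 (125 ± 8.96 CPM in DM3 at day 7 and 18.1 ± 3.62 at day 0) and Tead1 (335 ± 79.4 CPM in DM2 at day 2 and 197 ± 25.3 at day 0) were higher, and Cyr61, a matricellular YAP target, was lower in both groups than at day 0 (-1.5 ± 0.13 in DM2 at day 2 and -0.83 ± 0.13 in DM3 at day 7; edgeR adjusted p = 1.86e-06 and 0.000109). The TEAD cofactor Vgll2 was likewise lower in both (-2.03 ± 0.18 and -2.47 ± 0.19). Of 11 calcineurin and NFAT-linked genes, 4 were higher and 1 lower in DM3 at day 7 (median -0.18; against the same shares), among them the catalytic subunit Ppp3ca (180 ± 7.99 CPM, and 65.3 ± 0.848 at day 0), and 2 were higher and 5 lower in DM2 at day 2 (median -0.31).

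Of 9 tested LIM-domain relatives, 3 were higher and 4 lower in DM3 at day 7 (median -0.10; 28.9% and 30.1% of all genes), with Pdlim3 (a Z-disc protein, at 2.99 ± 0.11) and Lmcd1 (2.28 ± 0.26) the largest rises and Fhl3 (-1.38 ± 0.085) and Csrp2 the largest falls (edgeR adjusted p = 5.69e-10, 8.41e-06, 3.52e-08 and 2.83e-07), and 2 were higher and 2 lower in DM2 at day 2 (median -0.02; 23.5% and 26.2%), counts near the shares over all genes. Of 9 tested myogenic regulators and Mef2 genes, 7 were higher and 1 lower in DM3 at day 7 (median 2.19) and 5 were higher and 1 lower in DM2 at day 2 (median 0.92). Myog (myogenin) had 1052.5 ± 81.4 CPM in DM3 at day 7 and 1.81 ± 0.0913 at day 0, and Myod1, the one that was lower, had 68.8 ± 5.77 and 137 ± 12.3 CPM in the same groups. In DM2 at day 2 Srf (serum response factor) was lower than at day 0, at -0.78 ± 0.11 (edgeR adjusted p = 0.000118), and Myog was higher, at 26.9 ± 3.22 CPM.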

How the data were processed

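Poly(A) RNA of C2C12 cells was sequenced as 50 bp single-end reads after 11 PCR cycles. The authors aligned reads with STAR 2.5.1b to GRCm38.p5 and deposited RSEM 1.2.31 expected counts per gene, per the submitters' processing notes. These estimated counts split reads between overlapping or similar genes. Expected counts were rounded to whole numbers, genes were filtered with filterByExpr, libraries scaled by TMM, and all 7 groups (14 libraries) fitted together with edgeR 4.0.16 (robust quasi-likelihood, 7 residual degrees of freedom, R 4.3.3, limma 3.58.1). Of 49671 genes, 15973 were tested in 17 comparisons; those with Benjamini-Hochberg adjusted p below 0.05 over all genes tested are called. SE is the log2 fold change over the root of F. CPM is reads per 1000000 of the TMM-scaled library. Levels per kb use the Gencode exon length. Intervals are exact 95% counting intervals, and intervals and limits of 3 counts cover counting error only. The step was tested on simulated data. DESeq2 1.42.0, other scalings, filters and left-out libraries were the alternatives. The members and the gene lists were chosen with earlier results of these data known. The text names the 8 genes, Csrp1 and Csrp2, and the 3 genes most like each member among tested genes outside the 8. From each list it names genes among the 2 largest rises and falls called in DM3 at day 7 and DM2 at day 2 against day 0. Promoter windows are from RefSeq; motifs were searched on both strands.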

Additional observations from a re-analysis of the deposited data

Results flagged for a closer look

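The difference between media changed between day 2 and day 7 for most of the 8 genes, by the interaction term of the edgeR fit. For DM3 against DM1 the log2 change in the difference was 3.93 for Ankrd1, 3.97 for Ankrd2, 3.04 for Xirp1, 2.50 for Xirp2, 4.96 for Csrp3, 2.80 for Smpx and 2.27 for Pgm5. For DM3 against DM2 it was 1.67 for Ankrd1, 2.36 for Ankrd23, 1.90 for Xirp1, 2.91 for Xirp2 and 3.25 for Csrp3. Of the first set, the call of Smpx was lost without DM1 day 2 replicate 1, without DM1 day 2 replicate 2, without DM1 day 7 replicate 2 and without DM3 day 7 replicate 1 (edgeR adjusted p = 0.0702, 0.104, 0.0722 and 0.0757). Leaving out the 3 low-pseudogene libraries gave 0.0533. Of the second, Csrp3 was at edgeR adjusted p = 0.0531 without DM2 day 2 replicate 1, and Ankrd23, whose counts are shared with Gm42417, lost its call without any of 10 libraries, 3.88 being its value without DM3 day 2 replicate 2 and 1.65 without DM3 day 2 replicate 1. With Gm42417 counts added, its value was 1.96 (edgeR adjusted p = 9.24e-05). With 2 libraries a group, no single library was tested as an outlier.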

How the results depend on the processing

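Of the 17 counts of called genes among the 8, the alternatives that leave out no replicate kept 134 of 136 values within 1.5 times the reported count: DM3 against DM2 at day 2 gave 3 with only the groups compared, and DM1 day 2 against day 0 gave 2 without the 3 libraries of low pseudogene share, an alternative chosen after seeing the data. Leaving out each replicate gave 3 to 5 for the change of DM3 against DM2 between the days, and 5 to 6 for DM3 against DM2 at day 2. Directions turned only for differences that had not been called. Ankrd1 in DM1 at day 2 against day 0 was 0.01 with DESeq2, RLE size factors or only the groups compared, 0.05 with library totals and 0 without a filter (-0.08 to 0.07 leaving out replicates). Ankrd2 in DM2 at day 2 against day 0 was -0.21 without the 3 libraries (-0.20 to 3.70 leaving out replicates). The 3.70 is no bound, because the day 0 library left had no read. Ankrd23 at day 2 was -1.21 in DM3 against day 0 and -1.40 in DM3 against DM1 without the 3 libraries (-0.87 to 1.36 and -1.22 to 1.01 leaving out replicates), and 0.13 in DM3 against DM2 with Gm42417 counts added (-1.79 to 0.44). Csrp3 in DM3 against DM1 at day 2 was 0.16 without the 3 libraries (-0.81 to 0.24). Leaving out replicates gave -0.54 to 0.31 for Ankrd23 in DM2 at day 7 against day 0, -0.05 to 0.25 for Pgm5 in DM3 against DM1 at day 2, -0.05 to 0.72 for the change of Pgm5 and -3.25 to 2.41 for that of Smpx between the days in DM3 against DM2, 0 to 5.66 for Smpx in DM2 at day 2 against day 0, and -0.27 to 0.06 for Xirp2 in DM1 between the days. The -3.25 and the 0 of Smpx came without DM2 day 2 replicate 1, where the DM2 library of day 2 that was left had no read. They give no direction. The cause of the other turns was not tested.

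Scaling to totals moved all log2 fold changes of DM3 at day 7 against day 0 by -0.21 and of DM2 by -0.23. The split of all genes called was 3577 higher and 6101 lower with totals for DM3 at day 7 against day 0 (4613 and 4815 with TMM), 2172 and 5786 for DM3 against DM1 at day 7 (3620 and 4002), 1345 and 1302 for DM3 against DM2 at day 2 (1594 and 1008), 2825 and 6507 for DM2 at day 7 against day 0 (3921 and 4933), 2763 and 6679 for DM2 against DM1 at day 7 (4227 and 5011), 2486 and 5587 for DM3 between the days (3617 and 4036), 2665 and 6554 for DM2 between the days (4063 and 4691), and 1797 and 4097 for the change of DM3 against DM1 (2596 and 2986). Genes called in DM3 against DM2 at day 2 numbered 2602, and 494 with only the groups compared, 948 without the 3 libraries, 1124 without DM2 day 2 replicate 1, 4130 without DM3 day 2 replicate 1 and 1188 without DM3 day 2 replicate 2. In DM1 at day 2 against day 0 they numbered 4750, and 2134 without the 3 libraries, 2868 without day 0 replicate 1 and 2916 and 3036 without DM1 day 2 replicates 1 and 2. They numbered 5908 in DM3 against DM1 at day 2 and 3367 without the 3 libraries, and 5482 in DM1 between the days and 3631 without DM1 day 2 replicate 1. Same-numbered libraries did not deviate together in every pair of groups (correlations of -0.78 to 0.74, 3 of 21 over 0.1). These values cannot decide whether libraries of some groups share a batch, and the reported fit has no replicate block. A replicate block changed 1 call, Ankrd23 in DM3 between the days (1.41, edgeR adjusted p = 0.0472). Ankrd2, Smpx and Pgm5 had 0 to 2 reads in all at day 0, which sets the limit on their fold changes.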
